A study of Rattus norvegicus with 17 samples.

Results

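Macrophages that clear lipid and debris are marked by receptors, lysosomal proteins and secreted proteins, and 10 such genes were followed here in the colon mucosa of rats prone to colitis: Trem2, Tyrobp, Msr1, Cd163, Mrc1, Cd68, Gpnmb, Apoe, Spp1 and Lgals3. They were found by the gene name printed for each array probe. By that name 9 of the 10 had a probe, and Msr1 had none. Of those 9, 8 had a probe bright enough to be tested, out of 23134 gene names tested and 35535 on the array, and Cd163 did not. The first group comprised 8 female HLA-B27/β2-microglobulin transgenic rats fed a diet with 120 mmol calcium per kg (high calcium). The other comprised 9 female rats of the same transgenic line fed 30 mmol per kg (low calcium). Both groups carried human transgenes for HLA-B27 and β2-microglobulin on an inbred Fisher 344 background, started at 8 to 10 weeks of age and ate the same purified Western-style diet, with the extra calcium replacing glucose. No rats without the transgenes were analysed here, so each comparison is between 2 diets within one colitis model. The study asked how dietary calcium affects colitis in these animals.

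RNA came from scrapings of the colon mucosa. Each rat was hybridised in Cy5 on its own array against a Cy3 pool of all animals, and a value below is the log2 ratio of that rat to the pool. Dyes were not swapped, so only the difference between the diets is read, not the distance of a value from 0. Each difference subtracts the low calcium mean of these log2 ratios from the high calcium mean. It comes with a standard error (SE) and an adjusted p from limma, a linear model fitted to all 27083 probes tested with Benjamini-Hochberg adjustment over all of them. A gene passed at an adjusted p under 0.05. On an array, 60.6% to 72.5% of the spots lay well above background in Cy5, and the number of rats limits the precision. Rat 3 (high calcium) and rat 16 (low calcium), both on slide 1, stood out within their diets for protease and matrix genes in earlier results of these data, so members are also given without them.

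As background, TREM2 is a surface receptor of macrophages and microglia that binds lipids, lipoproteins and cell debris. It has no signalling tail and relies on the adaptor DAP12, the product of Tyrobp, whose phosphorylated tail recruits the kinase Syk. Macrophages that take up much lipid or many dying cells are known to raise Trem2, Gpnmb, Spp1, Lgals3, Cd68 and Apoe, whereas Cd163 and Mrc1 are associated with resident, scavenging macrophages. In the colon, macrophages lie in the lamina propria beneath the epithelium, where they remove bacteria and dead cells. Since the samples were whole scrapings, fewer macrophages and less RNA per macrophage cannot be told apart.

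Among the members, Trem2 and Gpnmb differed most, followed by Cd68, and all 3 averaged lower at high calcium. Tyrobp, Apoe and Spp1 were lower on average by smaller amounts, and Mrc1 and Lgals3 were slightly higher. With limma, 0 of the 8 tested members passed over all probes, as did 0% of all probes tested. At an unadjusted p under 0.05, 5 members were lower, namely Trem2, Gpnmb, Cd68, Tyrobp and Apoe, where 4.84% of all probes were, and 0 were higher, where 3.95% of all probes were. In 0 members did the groups not overlap; among all probes 0.0148% were lower at high calcium without overlap. In 3 members, Trem2, Gpnmb and Cd68, the low calcium mean exceeded the value of every high calcium rat, as it did for 1.74% of all probes. A difference of -0.3 or lower was found for the same 3 members and for 1.1% of all probes. Without rats 3 and 16, Trem2, Gpnmb and Cd68 passed, as did 1.21% of all probes. With median centring of all 17 arrays, limma's unadjusted p was 0.023 for Trem2, 0.075 for Gpnmb and 0.30 for Cd68. There it was 0.59 for Tyrobp, 0.51 for Apoe and 0.0058 for the dim Spp1, and 779 of 27083 probes lay under 0.05. The members were chosen with earlier results of these data known, so these counts describe them and are no independent support.

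**Figure D1:**
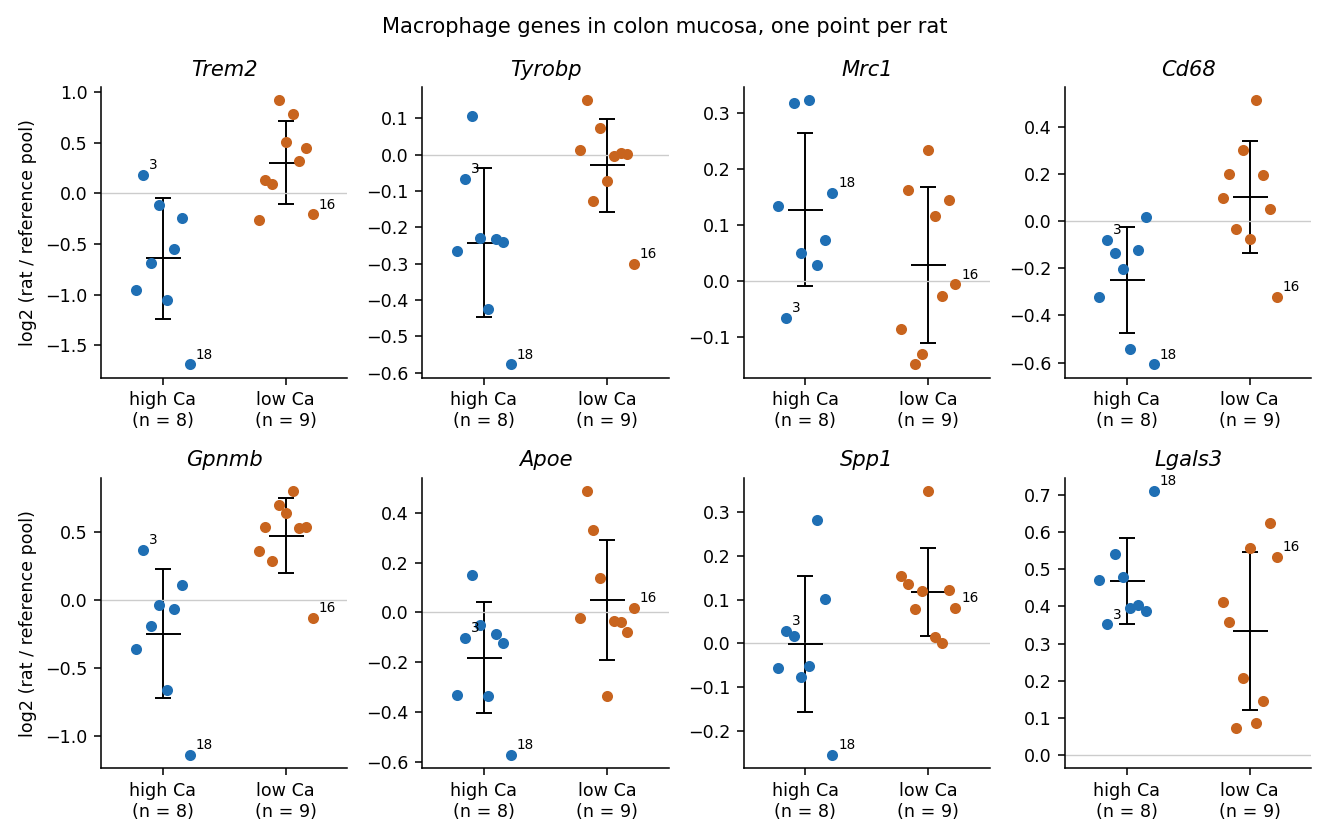
Log2 ratio of each rat to the reference pool (vertical axis) for the 8 tested genes, with high calcium rats (blue, n = 8) left of low calcium rats (orange, n = 9); bars are the mean and SD, and rats 3, 16 and 18 are numbered. The vertical scales differ between panels; the Trem2 means are -0.64 in high and 0.30 in low calcium rats, and every group pair overlaps.

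The receptor Trem2 had log2 ratios from -1.69 to 0.18 with a median of -0.62 in high calcium rats, against -0.27 to 0.92 with a median of 0.32 in low calcium rats. The 5 lowest rats of all 17 were fed high calcium, and of the 9 low calcium rats 5 lay above every high calcium rat. Rat 3 was the highest of the high calcium group, and rats 1 and 16 were the lowest of the low calcium group. The means were -0.64 ± 0.60 (SD, n = 8) in high and 0.30 ± 0.41 (SD, n = 9) in low calcium rats. They differed by -0.94 ± 0.21 (SE), which is 1.92-fold lower at high calcium, with a 95% interval of -1.38 to -0.51 (limma adjusted p = 0.14). By unadjusted p the probe ranked 36 of 27083. Without rats 3 and 16 the difference was -1.12 ± 0.20 (limma adjusted p = 0.0068). Without rat 3 alone it was -1.06 (limma adjusted p = 0.022), and without rat 18, the lowest rat, it was -0.79 (limma adjusted p = 0.32). When arrays were centred on their median and not loess normalised it was -0.92 with a wider SE of 0.37 (limma adjusted p = 1.00). The probe lies on chr9:8059065-8059124 of rn3, on the minus strand.

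Tyrobp, which encodes the adaptor DAP12 of TREM2 and of several other myeloid and natural killer cell receptors, differed less. Its log2 ratios ran from -0.58 to 0.11 with a median of -0.24 in high calcium rats, against -0.30 to 0.15 with a median of 0.00 in low calcium rats. The 2 lowest rats of all belonged to the high calcium group, low calcium rat 4 lay above every high calcium rat, and the others overlapped. The means differed by -0.21 ± 0.08 (SE; limma adjusted p = 0.40), or -0.27 ± 0.07 without rats 3 and 16 (limma adjusted p = 0.088). A second probe named Tyrobp, designed on an expressed sequence tag, differed by -0.08 ± 0.05 (limma adjusted p = 0.73). It lies beside the first one, at chr1:85447153-85447212 of rn3, but its position is written on the minus strand. The first probe lies at chr1:85447221-85447280 and is written on the plus strand, so the second may not read the same transcript.

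The difference of the receptor was also set against that of its adaptor, a contrast chosen after the values were seen. The ratio of Trem2 to Tyrobp within a rat, on the log2 scale, averaged -0.40 ± 0.49 (SD, n = 8) in high and 0.33 ± 0.37 (SD, n = 9) in low calcium rats. These means differed by -0.73 (exact two-sided permutation test over 24310 assignments of the rats, p = 0.0040). The p is not adjusted for that choice. As the differences of -0.94 for Trem2 and -0.21 for Tyrobp were known, the test cannot decide whether the 2 genes changed unequally. A ratio within an array also does not say which of the 2 genes moved.

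Gpnmb encodes a transmembrane glycoprotein of lysosomes and the cell surface. Its log2 ratios were from -1.14 to 0.37 with a median of -0.13 in high calcium rats, against -0.13 to 0.80 with a median of 0.53 in low calcium rats. The 4 lowest rats of all were fed high calcium, and of the 9 low calcium rats 6 lay above every high calcium rat. Rat 3 was the highest of the high calcium group at 0.37, and rat 16 the lowest of the low calcium group at -0.13. The means were -0.25 ± 0.47 (SD, n = 8) in high and 0.47 ± 0.28 (SD, n = 9) in low calcium rats. The difference was -0.72 ± 0.16 (SE), which is 1.65-fold lower at high calcium, with a 95% interval of -1.05 to -0.39 (limma adjusted p = 0.14). Without rats 3 and 16 it was -0.88 ± 0.14 (limma adjusted p = 0.0047), without rat 3 -0.81 (limma adjusted p = 0.022) and without rat 16 -0.80 (limma adjusted p = 0.041). Without rat 18 it was -0.59 (limma adjusted p = 0.32). The probe lies on chr4:77458328-77458387 of rn3, on the plus strand.

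Cd68, which encodes a heavily glycosylated lysosomal protein used as a general macrophage stain, had log2 ratios from -0.61 to 0.02 with a median of -0.17 in high calcium rats, against -0.32 to 0.51 with a median of 0.10 in low calcium rats. Of the low calcium rats 6 lay above every high calcium rat, and rat 16 lay among the lower high calcium rats. The means differed by -0.35 ± 0.10 (SE), which is 1.28-fold lower at high calcium (limma adjusted p = 0.24). Without rats 3 and 16 the difference was -0.43 ± 0.10 (limma adjusted p = 0.028). In the Cy5 channel of all 17 rats, without the ratio to the pool, it was -0.54. That value includes a spot of high calcium rat 17 that was dim in both channels (Cy5 1084, Cy3 574). The pool's Cy3 signal was 1310 or more on every other array, and the ratio of rat 17 was 0.02. The probe lies on chr10:56495385-56495444 of rn3, on the minus strand.

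**Figure D2:**
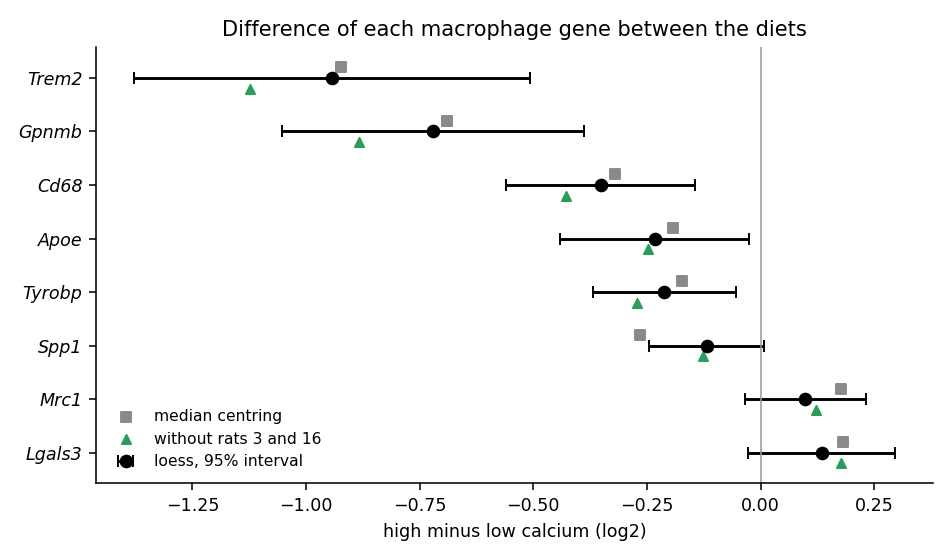
Difference between the diets, as log2 of high over low calcium (horizontal axis), for each tested gene, with the 95% interval of limma's fit (black) and the value with median centring (grey squares) and without rats 3 and 16 (green triangles). Trem2 at -0.94 and Gpnmb at -0.72 lie farthest from 0, and the intervals of Spp1, Mrc1 and Lgals3 include 0.

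The promoters of Trem2, Gpnmb and Cd68 are shown because these 3 members differed most and in the same direction. The windows run from 250 bases before to 50 bases after the gene's start, are taken from RefSeq on GRCr8 and read 5′ to 3′ on the gene's strand. They lie at chr9:20151730-20152029 (minus strand), chr4:79340878-79341177 (plus strand) and chr10:54882392-54882691 (minus strand). Capitals mark matches on either strand to GAGGAA, the core of sites for the myeloid factor PU.1, and TCATGTG, the M-box of the MITF family. They also mark matches to TGANTCA, a looser pattern that includes the AP-1 site TGAGTCA.
Trem2: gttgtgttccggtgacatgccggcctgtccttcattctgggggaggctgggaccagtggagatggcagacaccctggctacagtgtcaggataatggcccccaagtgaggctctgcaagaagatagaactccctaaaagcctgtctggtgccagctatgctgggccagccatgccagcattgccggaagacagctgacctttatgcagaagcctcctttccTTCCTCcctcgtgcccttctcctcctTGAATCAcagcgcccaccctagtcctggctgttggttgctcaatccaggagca
Gpnmb: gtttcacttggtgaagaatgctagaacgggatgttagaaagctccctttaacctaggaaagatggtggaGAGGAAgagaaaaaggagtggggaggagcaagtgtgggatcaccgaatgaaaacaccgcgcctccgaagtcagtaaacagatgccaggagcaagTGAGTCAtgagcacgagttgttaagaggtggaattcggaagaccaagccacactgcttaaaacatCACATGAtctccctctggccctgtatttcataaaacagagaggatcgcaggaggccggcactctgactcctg
Cd68: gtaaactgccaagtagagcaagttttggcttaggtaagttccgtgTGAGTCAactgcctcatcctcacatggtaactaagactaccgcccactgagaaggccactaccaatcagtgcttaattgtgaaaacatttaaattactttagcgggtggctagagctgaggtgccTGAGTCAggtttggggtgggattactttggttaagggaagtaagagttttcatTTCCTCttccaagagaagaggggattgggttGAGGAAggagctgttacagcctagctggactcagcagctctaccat
Each window held at least 1 GAGGAA and at least 1 TGANTCA, and no 2 matches overlapped. The TGANTCA matches read TGAGTCA in Gpnmb and Cd68 but TGAATCA in Trem2, so the Trem2 window held no TGAGTCA. Of 33469 rat promoter windows of that length, 27.6% held GAGGAA, 7.33% TGANTCA and 1.93% both. Only the Gpnmb window of these 3 held TCATGTG, written there as its reverse complement, against 3.56% of all windows. RefSeq windows were present for 7 of the 10 members, and TGANTCA was absent from the other 6 windows, 1 each for Mrc1, Spp1 and Cd163 and 3 for Apoe. Mrc1 had 2 matches to GAGGAA, and Apoe had 1 to GAGGAA and 1 to TCATGTG in different windows. These matches describe letters in a window and were not tested as sites.

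Of the 3 scavenger receptors, Mrc1, the mannose receptor that takes up glycoproteins and microbes, could be tested by name. Its log2 ratios were from -0.07 to 0.32 with a median of 0.10 in high calcium rats, against -0.15 to 0.23 with a median of -0.01 in low calcium rats. The groups overlapped over most of their range, and the means differed by 0.10 ± 0.06 (SE), with a 95% interval of -0.03 to 0.23 (limma adjusted p = 0.71). The second Mrc1 probe, well above background on 13 arrays, differed by 0.04 ± 0.07. Cd163, the haptoglobin-hemoglobin receptor, has 2 probes on the array, and both were well above background on 0 of 17 arrays. The Cy5 signal of the brighter one was 78.8 to 99.7 in high calcium rats, against 76.6 to 99.97 in low calcium rats, so no fold is given.

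Msr1, the class A scavenger receptor for modified lipoproteins, carries an older locus name on the array, which RefSeq lists as its synonym. It therefore falls outside the rule, and its values are given as an addition. The log2 ratios of that probe were from -0.70 to 0.23 with a median of -0.20 in high calcium rats, against -0.05 to 0.23 with a median of 0.09 in low calcium rats. The difference was -0.31 ± 0.09 (SE; limma adjusted p = 0.23).

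Among the secreted members, Apoe encodes apolipoprotein E, a lipid carrier made by macrophages and a ligand of TREM2. Its log2 ratios were from -0.57 to 0.15 with a median of -0.11 in high calcium rats, against -0.34 to 0.49 with a median of -0.02 in low calcium rats. The groups overlapped widely, and the means differed by -0.23 ± 0.10 (SE; limma adjusted p = 0.51). Spp1, which encodes the adhesive glycoprotein osteopontin, was dim. It lay well above background on 4 of 8 high calcium arrays and on 9 of 9 low calcium arrays, with Cy5 signals of 71.0 to 143.8 in high and 101.7 to 139.4 in low calcium rats, and it passed the filter through its low calcium arrays. Its log2 ratios were from -0.25 to 0.28 with a median of -0.02 in high calcium rats, against 0.00 to 0.35 with a median of 0.12 in low calcium rats. The difference was -0.12 ± 0.06 (SE; limma adjusted p = 0.60) over 10 spots of 1 probe. That size varied between settings. It was -0.14 with no background subtraction, -0.76 with the scanner software's processed signals (limma adjusted p = 0.35), -0.25 with a normexp offset of 0 and -0.27 with median centring.

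Lgals3 encodes galectin-3, a galactoside-binding lectin of macrophages that the colonic epithelium also makes, and its probe was far above background on every array. Its log2 ratios were from 0.35 to 0.71 with a median of 0.44 in high calcium rats, against 0.07 to 0.63 with a median of 0.36 in low calcium rats. Of the low calcium rats 4 lay below every high calcium rat, and high calcium rat 18 was the highest of all. The difference was 0.13 ± 0.08 (SE), with a 95% interval of -0.03 to 0.30 (limma adjusted p = 0.67), and 0.04 in the Cy5 channel alone.

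On each of slides 1 to 4 there were 2 high and 2 low calcium rats, and low calcium rat 1 was alone on slide 5. Within those 4 slides Trem2 differed by -0.35, -0.91, -1.45 and -1.35, and Gpnmb by -0.20, -0.61, -1.08 and -1.05. The smallest of these differences came from slide 1, which held rats 3 and 16. Cd68 was lower on all 4 slides, from -0.55 to -0.14, as were Tyrobp (-0.41 to -0.03) and Apoe (-0.47 to -0.03). Spp1 ran from -0.14 to -0.07, but it was dim and passed the filter through its low calcium arrays, so its direction is no support. Mrc1 and Lgals3 were higher on 3 of the 4. With the slide as a block Trem2 differed by -1.01 ± 0.22 and Gpnmb by -0.73 ± 0.18 (SE; limma adjusted p = 0.24 and 0.27).

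**Figure D3:**
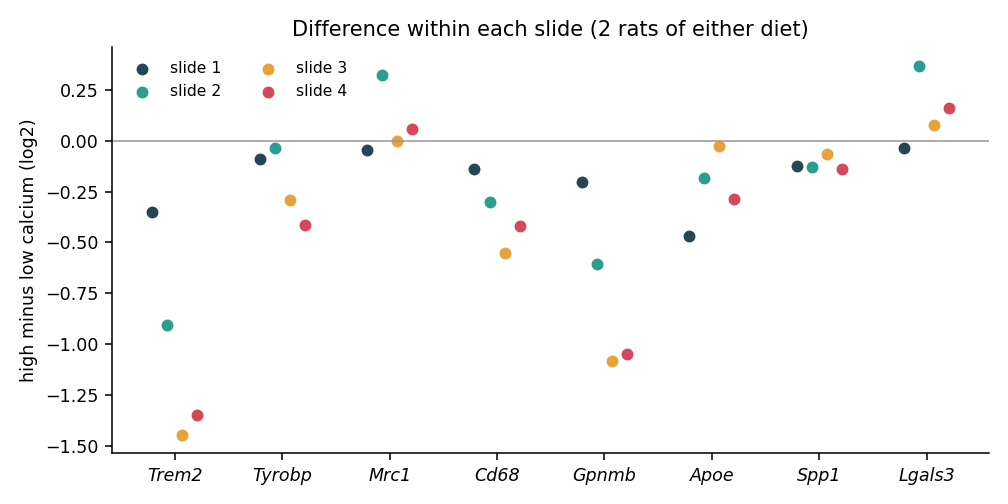
Difference between the means of 2 high and 2 low calcium rats on the same slide (vertical axis, log2), for each tested gene and each of slides 1 to 4. Trem2 and Gpnmb lie below 0 on all 4 slides and nearest to it on slide 1, at -0.35 and -0.20.

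Among rats of the same diet, Trem2 varied together with Gpnmb in both diets and with Cd68 in high calcium rats, 3 of the relations tested. Trem2 was set against each of the other 7 tested members within each diet, 14 relations in all, with exact two-sided permutation tests and Benjamini-Hochberg adjustment over the 14. Trem2 and Gpnmb followed each other in high calcium rats (r = 0.97, exact p = 9.92e-05, adjusted p = 0.0014; rho = 0.98, exact p = 0.00040, adjusted p = 0.0056; n = 8). They did so in low calcium rats too (r = 0.82, exact p = 0.0029, adjusted p = 0.020; rho = 0.88, exact p = 0.0031, adjusted p = 0.022; n = 9). Without the 2 rats farthest from the median of Trem2, r was 0.89 (rats 3 and 18 left out) and 0.92 (rats 1 and 6 left out). Trem2 and Cd68 gave r = 0.85 in high calcium rats (exact p = 0.0060, adjusted p = 0.028; rho = 0.81, exact p = 0.022, adjusted p = 0.076; n = 8). In low calcium rats they gave r = 0.65 (exact p = 0.055, adjusted p = 0.13; rho = 0.52, exact p = 0.16, adjusted p = 0.30; n = 9), and without the same rats r was 0.75 in either diet.

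Trem2 and its adaptor Tyrobp gave r = 0.66 in high calcium rats (exact p = 0.072, adjusted p = 0.14; rho = 0.74, exact p = 0.046, adjusted p = 0.13; n = 8), which was 0.21 without rats 3 and 18. In low calcium rats they gave r = 0.42 (exact p = 0.26, adjusted p = 0.37; rho = 0.18, exact p = 0.64, adjusted p = 0.75; n = 9). The other 8 relations, with Mrc1, Apoe, Spp1 and Lgals3, had adjusted p from 0.12 to 0.99 for r and from 0.076 to 0.84 for rho. Mrc1 went against Trem2 in high calcium rats (r = -0.62, rho = -0.81, exact p of rho = 0.022, adjusted p = 0.076), with r = -0.68 without rats 3 and 18. In low calcium rats Mrc1 gave r = 0.22. Lgals3 and Apoe gave r = -0.74 and 0.73 in high calcium rats, which were -0.01 and 0.53 without rats 3 and 18. Rat 18 was the lowest of all 17 rats in 6 of the 8 members, Trem2, Gpnmb, Cd68, Tyrobp, Apoe and Spp1, and the highest in Lgals3. It also had the lowest mean of the pan-macrophage (-0.37), fibroblast (-0.73), neutrophil (-0.48) and T cell (-0.27) markers and the highest of the epithelial markers (0.31), and the part of this in its member values was not tested.

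**Figure D4:**
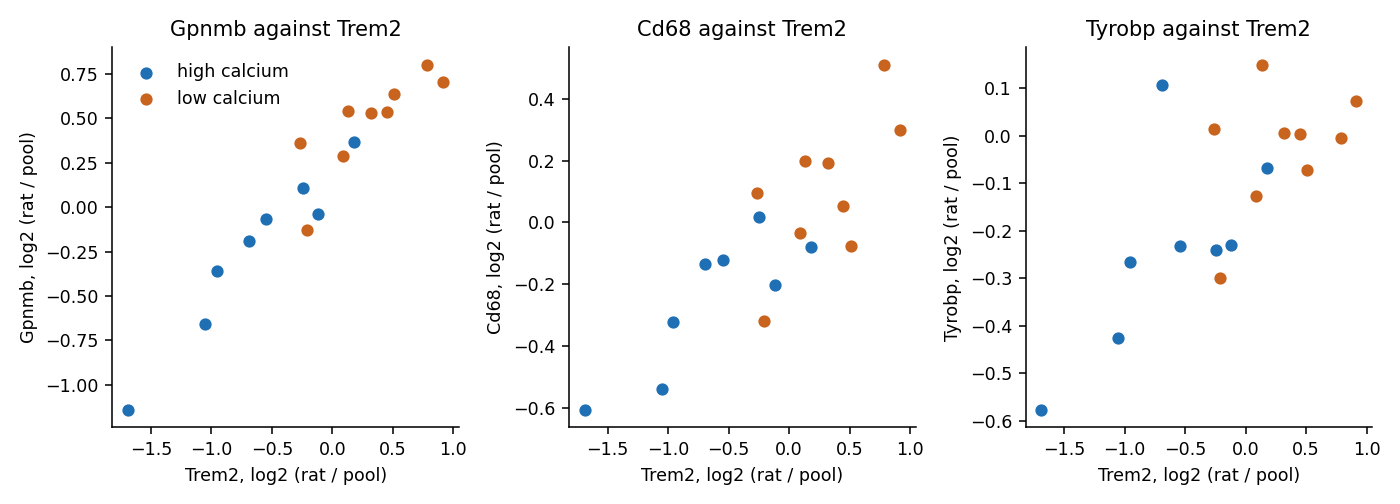
Gpnmb, Cd68 and Tyrobp (vertical axes) against Trem2 (horizontal axes) in each rat, all as log2 ratio to the pool, with high calcium rats in blue (n = 8) and low calcium rats in orange (n = 9). Gpnmb follows Trem2 within both diets (r = 0.97 in high and 0.82 in low calcium rats), and Tyrobp does so less closely (r = 0.66 and 0.42).

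Over all 17 rats, with the mean of each diet taken off, Gpnmb was the gene most like Trem2 of 23024 gene names (r = 0.92), where the median gene had r = 0.04 and the 99th percentile was 0.66. Cd68 ranked 87 (r = 0.74), Tyrobp 531 (r = 0.58), Spp1 2735 (r = 0.37) and Apoe 4254 (r = 0.29), and Mrc1 and Lgals3 had negative values (-0.24 and -0.42). The 5 genes outside the members with the highest values were Hsd11b1 (r = 0.90), Emilin1 (0.89), Slc11a1 (0.88), Eno2 (0.87) and Tcirg1 (0.86). Hsd11b1 encodes the enzyme that regenerates active glucocorticoid, and differed between the diets by -0.90 ± 0.18 (SE; limma adjusted p = 0.13). Slc11a1 encodes a metal transporter of the phagosome (-0.45 ± 0.12; limma adjusted p = 0.20) and Tcirg1 a subunit of the vacuolar proton pump (-0.26 ± 0.07; limma adjusted p = 0.23). Eno2 encodes a glycolytic enolase and Emilin1 a glycoprotein of elastic fibres, at -0.39 ± 0.10 and -0.19 ± 0.07 (limma adjusted p = 0.18 and 0.41). These values describe arrays that share a reference pool and a normalisation.

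Genes around the members were counted in lists, with 0 past the adjusted threshold in any of them. Over all probes 46.1% had a difference below 0 and the median difference was 0.01. At an unadjusted p under 0.05, 4.84% of all probes were lower and 3.95% higher, 2381 in all. With median centring the median over all probes was 0.04, and 779 of 27083 probes had an unadjusted p under 0.05. Of 11 tested genes that signal with or beside TREM2 and DAP12, 9 were lower and 1 had an unadjusted p under 0.05, with a median of -0.06, whereas median centring gave 4 lower and a median of 0.02. That gene was Trem1, the activating relative of Trem2 on neutrophils and monocytes (-0.22 ± 0.10). Card9 and Inpp5d, which act downstream of such receptors, differed by -0.11 ± 0.06 and -0.07 ± 0.05 (SE; limma adjusted p = 0.55, 0.67 and 0.73 in the order given).

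Of 23 tested genes of lipid uptake, storage and efflux 17 were lower, with a median of -0.06, and 6 had an unadjusted p under 0.05, all lower; with median centring 14 were lower, 1 at that p. Fabp4, a fatty acid binding protein of macrophages, adipocytes and endothelium, differed by -0.53 ± 0.13. The cholesterol exporter Abca1 differed by -0.28 ± 0.10 and Fabp5 by -0.24 ± 0.09 (SE; limma adjusted p = 0.17, 0.35 and 0.40). The fatty acid scavenger receptor Cd36 and the lysosomal lipase Lipa were at -0.06 and -0.04. Of 10 tested scavenger and phagocytic receptors and bridging proteins 7 were lower, with a median of -0.06 and 2 at an unadjusted p under 0.05 (0 with median centring). Mfge8, which bridges dying cells to phagocytes, differed by -0.35 ± 0.09, the collectin Colec12 by -0.34 ± 0.12 and the lectin Clec10a by -0.20 ± 0.14 (SE; limma adjusted p = 0.19, 0.39 and 0.73). Galectins and osteopontin receptors had 8 of 13 tested genes lower, with a median of -0.04. Median centring gave 6 lower and a median of 0.03, where the median over all probes was 0.04. Lgals1, the galectin of mesenchymal cells, was at -0.35 ± 0.10, the osteopontin and hyaluronan receptor Cd44 at -0.22 ± 0.10 and Lgals5 at 0.13 ± 0.07 (SE; limma adjusted p = 0.25, 0.53 and 0.65).

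All 22 tested genes of the pan-macrophage and monocyte list, which also held general leukocyte genes such as Ptprc and Cd53, were lower. Their median was -0.10, and 8 had an unadjusted p under 0.05. With median centring 16 of 22 were lower, 1 at that p, with a median of -0.08. Lysozyme (Lyz2, -0.64 ± 0.14), the integrin Itgam (-0.26 ± 0.07) and the receptor for macrophage growth factor Csf1r (-0.21 ± 0.06) had the smallest p (limma adjusted p = 0.14, 0.19 and 0.26). The complement chains C1qa, C1qb and C1qc differed by -0.13, -0.09 and -0.13, and Aif1, Adgre1 and Mpeg1 by -0.11, -0.02 and -0.01. Of 19 lysosomal genes and MiT/TFE factors 16 were lower (10 with median centring), with a median of -0.05. Atp6v0d2, a proton pump subunit of macrophages and osteoclasts, was at -0.47 ± 0.13 (SE; limma adjusted p = 0.23). Of 14 tested genes of alternative activation 10 were lower, with a median of -0.10 and 6 at an unadjusted p under 0.05 (1 with median centring). Arginase (Arg1) differed by -1.20 ± 0.33, the growth factor Igf1 by -0.37 ± 0.10 and Ms4a7 by -0.39 ± 0.12 (SE; limma adjusted p = 0.21, 0.19 and 0.32), whereas Il10 was at 0.01.

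**Figure D5:**
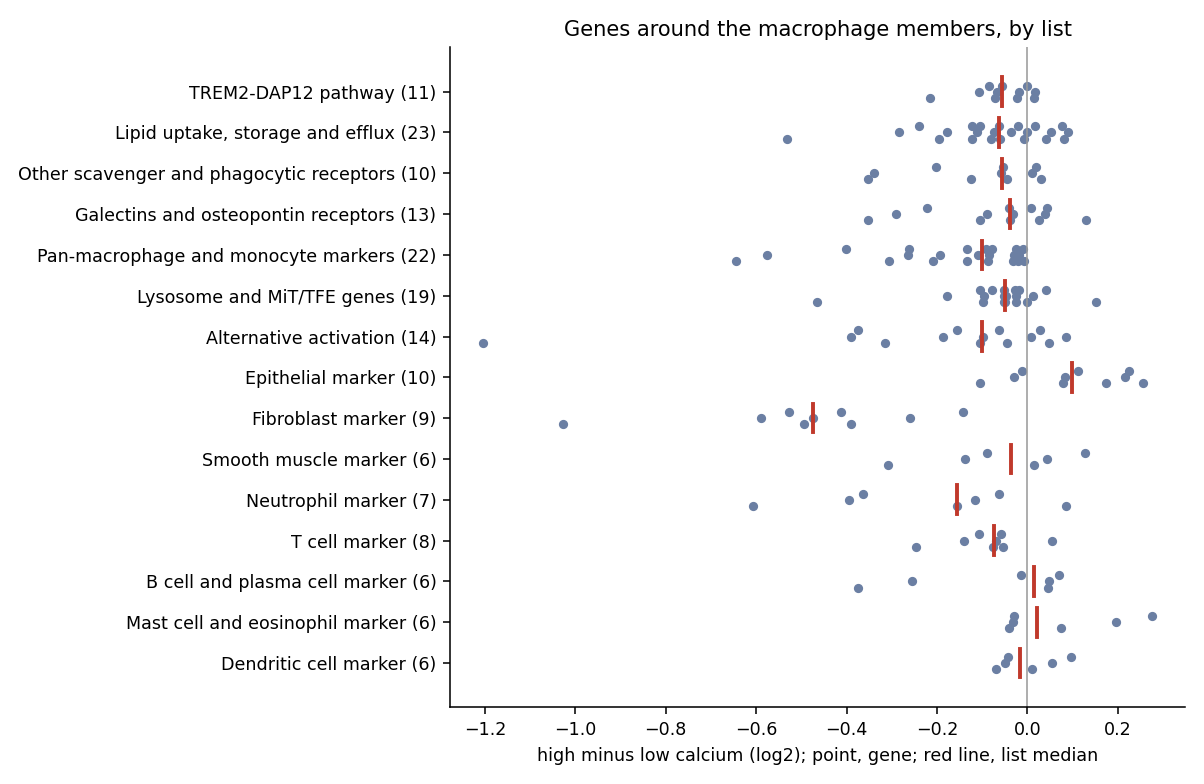
Difference between the diets, as log2 of high over low calcium (horizontal axis), for each tested gene of each list (points; number of genes in brackets) with the list's median (red line). The pan-macrophage median is -0.10 with every gene below 0, and the fibroblast median is -0.47.

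Markers of other cells in the scrapings were counted in the same way, with 0 past the adjusted threshold. Of 9 tested fibroblast markers 9 were lower, with a median of -0.47 and 8 at an unadjusted p under 0.05 (2 with median centring), and their mean log2 ratio ran from -0.73 to 0.21 in high and from -0.12 to 0.47 in low calcium rats. Neutrophil markers were lower in 6 of 7, with a median of -0.15 and means from -0.48 to 0.20 in high and from -0.27 to 0.39 in low calcium rats; Mpo, on the array, was too dim to be tested. T cell markers were lower in 7 of 8 (4 with median centring), with a median of -0.07 and means from -0.27 to 0.06 in high and -0.14 to 0.19 in low calcium rats. Epithelial markers were higher in 7 of 10, with a median of 0.10 and means from -0.07 to 0.31 in high and from -0.19 to 0.20 in low calcium rats. Smooth muscle, B and plasma cell, mast cell and eosinophil, and dendritic cell markers had medians of -0.04, 0.02, 0.02 and -0.02 over 6 tested genes each. The part of these cells in the differences of the macrophage genes was not tested.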

How the data were processed

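Per the labels' protocols, RNA of mucosal scrapings was amplified and labelled, the RNA of every animal in Cy5 and the common pool in Cy3, with no dye swap. The deposited scanner files hold spot intensities; per the file headers the software was Agilent Feature Extraction 9.5.1.1 (9.5 in the submitters' processing notes). A deposited matrix gives 28213 features as log2 values, with no account of how the authors derived them in the sources used here. Its differences between arrays followed the log2 Cy5/Cy3 ratio (r = 0.979, across genes and arrays), each array median was 8.76, and what offset was added is unknown. It was used only as another setting.

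Background was corrected by normexp (offset 50) and arrays normalised by loess in limma 3.58.1 under R 4.3.3, with control and outlier-flagged spots at weight 0. Flagged spots were then left out, spots of a probe averaged to 41012 probes, and a probe was tested if 0.5 or more of its spots were called well above background in the Cy5 channel of 8 or more arrays. Groups, from the sample titles, were compared without covariates by lmFit and eBayes, two-sided. A gene was represented by its brightest tested probe. Names were updated through RefSeq GRCr8 by accession for 10735, by symbol for 5577 and by synonym for 3730 probes, and 20970 kept the array's name. Median Cy5 signal was 146.8 to 180.8 per array over a background of 43.5 to 53.5. Per the labels, each array held 1 individual rat. The fit was tested on simulated data before use.

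The members, gene lists and settings were chosen with earlier results of these data known. The text names all members, the 3 genes of each list around them with the smallest unadjusted p (some genes of the lysosomal list are not reported here), and the 5 genes most like Trem2; other genes in those lists and the comparison of Trem2 with Tyrobp were added after the values were seen. No whole genome was used here.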

Additional observations from a re-analysis of the deposited data

Results flagged for a closer look

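Of 16 combinations of a tested member and a diet, 1 held a rat far from the others of its group: Spp1 in low calcium rat 7, at 0.35 on the log2 ratio scale, where the next rat was at 0.15 (gap of 0.56 of the group's range, n = 9). By chance about 1 in 20 such groups would hold one.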

How the results depend on the processing

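The 8 member differences kept their sign in every alternative that gave a value, under other background corrections, normalisations, filters, variance models and probes, with slides as blocks, and without any one rat; Spp1 gave none where all 17 arrays had to be bright. As analysed 0 probes and 0 members passed. Without rats 3 and 16 together 329 probes and 3 members passed (Trem2, Gpnmb and Cd68). Those rats were noticed for standing apart on outcome genes, so leaving them out favours a larger difference. Leaving out 1 rat at a time gave 0 to 193 probes and 0 to 2 members: 193 probes with Trem2 and Gpnmb without rat 3, 38 probes with Gpnmb without rat 16, and 0 otherwise. With median centring Mrc1 was at 0.18, and in the Cy5 channel alone at 0.04. No paired analysis was possible because the diets share no replicate numbers. Dim signal limits Spp1 and Cd163.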

Other observations

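With rats 3 and 16 left out, the genes past limma's adjusted threshold in the lists around the members were all lower at high calcium. Among them were the immunoglobulin receptors Fcgr1a (-0.55) and Fcgr2b (-0.80), the oxidase subunit Cybb (-0.39), arginase Arg1 (-1.60), the chitinase-like Chi3l1 (-0.43) and the cholesterol exporter Abca1 (-0.37), with adjusted p from 0.0042 to 0.047. There 1.21% of all probes passed (329 of 27083, 314 of them lower). Of 22 pan-macrophage genes 5 passed, as did 3 of 23 lipid genes, 2 of 14 alternative activation genes, 1 of 10 scavenger and phagocytic genes, 1 of 19 lysosomal genes, 6 of 9 fibroblast and 2 of 7 neutrophil markers. In the TREM2-DAP12 list 0 of 11 passed and among galectins and osteopontin receptors 0 of 13. At an unadjusted p under 0.05 the first of these had 1 gene lower, and the second had 4 lower and 1 higher. Over all probes 2936 of 27083 lay under that p. As analysed on all 17 rats 0 genes of the lists passed the adjusted threshold. Rats 3 and 16 were noticed for protease and matrix genes in earlier results of these data, so leaving them out favours larger differences. The fibroblast markers that passed include the matrix genes Col1a1, Col1a2, Dcn and Lum, so the counts without these rats are no independent support.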
